A study of Mus musculus with 25 samples.

Results

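The genes described here encode the potassium channels of the mouse and their accessory subunits, followed across age in RNA from brain hemispheres. They were chosen by name and level: protein-coding genes whose symbol is Kcn followed by subfamily letters and a number, other than Kcnj8 and Kcnj13, with a mean of at least 1 CPM over all 25 libraries. CPM are counts scaled to a library total of 1000000 after TMM, a scaling that offsets differences in RNA composition between libraries. Of 91 genes with such a name in the table of 47729 genes, 76 reached that level and all 76 passed the filter on low counts. Just inside the minimum were Kcnk5 at 1.03, Kcnmb1 at 1.32 and Kcnh8 at 1.43 CPM, and just outside it were Kcnq1 at 0.817, Kcnj14 at 0.786 and Kcnn4 at 0.378 CPM. The libraries came from male C57BL/6 mice of 2, 9, 15, 24 and 30 months, 5 libraries per age. The labels name no treatment and no genetic change, and every group shares strain, sex and tissue. They describe the libraries as separate samples without stating that each is a separate animal. The p-values below therefore judge differences between ages against the spread between these samples.

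Potassium channels let potassium leave or enter the cell along its gradient, and in neurons they set the resting potential, end the action potential and space repeated spikes. Voltage-gated subunits open on depolarization, and the modulatory subunits, silent on their own, assemble with members of the Kcnb subfamily and change how those channels gate. Calcium and sodium activated channels couple potassium current to ion entry during firing, inward rectifiers and tandem-pore leak channels hold the resting potential in neurons and astrocytes, and accessory subunits steer trafficking and inactivation. In bulk tissue, fewer cells of a type and less RNA per cell cannot be told apart.

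Each library held between 17.8 and 31.3 times 1000000 counts. The 30 month replicates 2 to 5 stood apart in base composition. The measure was the log2 level of genes of high GC content minus that of genes of low GC content. Each gene's level was taken relative to its mean over the 20 libraries of 2 to 24 months. The measure was 1.08 to 1.98 in those replicates, against 0.129 in 30 month replicate 1 and -0.247 to 0.148 in the 20 libraries of 2 to 24 months. Among these, the same measure ran over -0.021 to 0.077 at 2 months, -0.065 to 0.12 at 9 months, -0.247 to -0.082 at 15 months and 0.057 to 0.148 at 24 months, so that 15 months lay below every other age. For that reason the ages up to 24 months were fitted on their own 20 libraries, and 30 months is given with and without offsets for GC content. All 12 neuronal marker genes were detected at every age. They summed to 9316 to 9760 CPM at 24 months, against 9190 to 9839 CPM at 2 months. The 6 markers of cerebellum and hindbrain summed to 22.9 to 90.4 CPM over the libraries, with both ends of that range at 30 months. In 9 month replicate 1, Ttr, the choroid plexus gene for transthyretin, was at 17.9 CPM, against 368 to 843 CPM elsewhere, and Kcne2, a subunit made in choroid plexus, was at 0.145 CPM there.

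Per kilobase of exon sequence, the scale on which genes can be compared with each other, the most abundant members were Kcnab2 at 81.0, a beta subunit of Kcna channels, and Kcnj10 at 64.2 CPM per kb, the main inward rectifier of astrocytes. Next came Kcnip2 at 43.0, Kcna2 at 41.5, Kcnj4 at 41.5 and Kcnk1 at 40.5 CPM per kb, values within a narrow band. At the other end stood Kcnk5 at 0.303, Kcnmb1 at 0.315 and Kcnh8 at 0.315 CPM per kb. In other subfamilies the highest members included Kcnf1 at 32.04, Kcnd2 at 28.2, Kcnc1 at 26.3, Kcnt1 at 20.8, Kcnh3 at 18.2, Kcnv1 at 15.6, Kcnma1 at 8.16, Kcns2 at 6.33, Kcng1 at 6.04, Kcnn3 at 4.96, Kcne1l at 3.32, Kcnmb4 at 2.73 and Kcnu1 at 0.865 CPM per kb.

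Summed over members, the 27 voltage-gated subunits averaged 415 ± 7.46, 426 ± 8.02, 415 ± 5.81, 392 ± 13.0 and 399.7 ± 12.8 CPM per kb at 2, 9, 15, 24 and 30 months (SD, n = 5 each). The 9 modulatory subunits averaged 77.3 ± 3.46, 80.6 ± 4.68, 76.4 ± 3.76, 68.2 ± 2.36 and 70.1 ± 4.76 CPM per kb over the same ages. Over 2 to 24 months both sums were highest at 9 months and lowest at 24 months. The 30 month sums are without GC correction and are left out of that ranking. Up to 24 months the 13 accessory subunits were likewise highest at 9 months, but lowest at 15 months, with 218.2 ± 2.41, 227 ± 2.11, 217 ± 1.97, 225 ± 2.43 and 256.3 ± 30.01 CPM per kb at 2, 9, 15, 24 and 30 months (SD, n = 5 each). These sums are descriptions without a test, and each is led by its few most abundant genes.

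**Figure D1:**
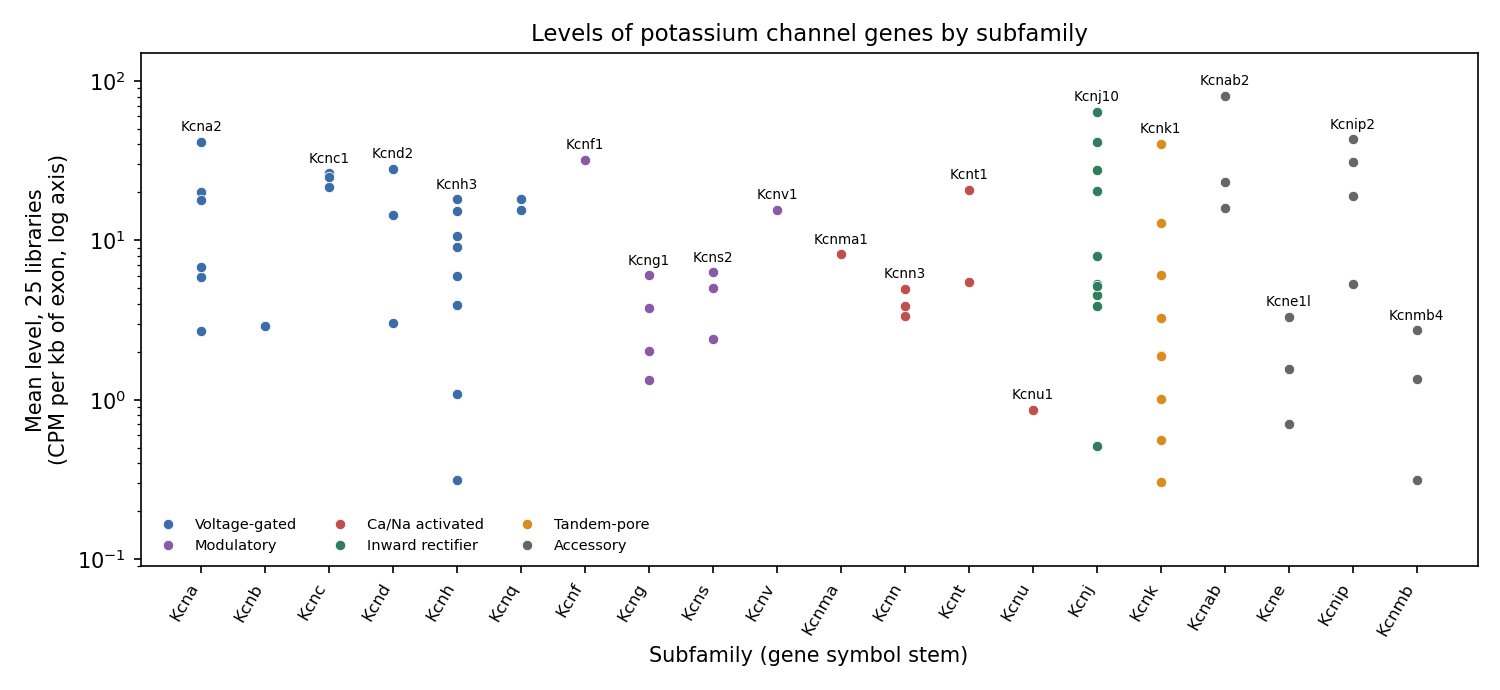
Level of 72 of the 76 members on a log axis in CPM per kilobase of exon sequence, by subfamily; each point is one gene's mean over the 25 libraries. Kcnab2 and Kcnj10 stand highest, at 81.0 and 64.2 CPM per kb.

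Between 2 and 24 months more members fell than rose. At 24 against 2 months, 23 of 76 members were lower (30.3%) and 3 were higher (3.95%) at an adjusted p under 0.05 in edgeR's quasi-likelihood test, where 11.7% of the 17472 genes tested were lower and 11.02% higher. Among the 14898 tested genes of at least 1 CPM, the level the members had to reach, 1974 were lower (13.3%) and 1787 higher. The median log2 fold change was -0.078 over the members and 0.0024 over all genes. The changes were small: between ages up to 24 months no called member reached 1.5-fold. At 24 against 9 months, 31 members were lower (40.8%) and 5 higher (6.58%), against 15.3% and 15.4% of all genes. With total counts in place of TMM, 24 against 2 months gave 21 lower and 6 higher, so that the higher share of calls was 22.2% in place of 11.5%. Total counts at 24 against 9 months gave 23 lower and 7 higher (23.3% in place of 13.9% of calls higher).

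Fewer members were called at the earlier ages, and they did not move in one direction. At 9 against 2 months, 9 members were higher and 3 lower, against 7.92% and 6.96% of all genes, and with total counts the split was 9 higher and 8 lower (52.9% in place of 75% of calls higher). Over the same ages, 5 of 9 oligodendrocyte markers, 4 of 7 markers of their precursors and 5 of 7 pericyte and smooth muscle markers were lower, and 1 oligodendrocyte marker was higher. The pericyte and smooth muscle markers summed to 237 to 279 CPM at 9 months, against 294 to 349 CPM at 2 months, and their part in the channel results was not tested. At 15 against 2 months, 3 members were higher and 9 lower, against 6.10% and 6.95% of all genes. A straight line through 2, 9, 15 and 24 months gave 19 falling and 2 rising members, against 8.32% and 8.44% of all genes, and 18 of those 19 also fell at 24 against 2 months. By mean level, 27 members peaked at 9 months (35.5%) and 26 at 2 months (34.2%). Of genes of at least 1 CPM, 24.5% and 24.3% did so. In addition, 33 members were lowest at 24 months (43.4%, against 28.8% of genes of at least 1 CPM). The comparisons with 2 months share the 2 month libraries, so they are not independent of each other.

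The number of calls depended on the libraries that entered the fit, for reasons that were not tested. The fit of 20 libraries was chosen with earlier results of these data known. When all 25 libraries entered 1 fit, 24 against 2 months left 1 lower member, Kcnk2 (adjusted p = 0.0114), and 0 higher in edgeR, with 16 and 2 at an unadjusted p under 0.05. In the fit of 20 libraries those unadjusted counts were 32 and 8, and DESeq2 called 24 lower and 3 higher. For 24 against 9 months the fit of all 25 libraries left 9 lower and 2 higher members. No share over all genes is given beside the counts of that fit. Of the 24 month libraries, replicate 3 was the lowest in 12 of the 23 members that fell (52.2%), and in 36.0% of all falling genes of at least 1 CPM. Without it the fit called 18 members lower.

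**Figure D2:**
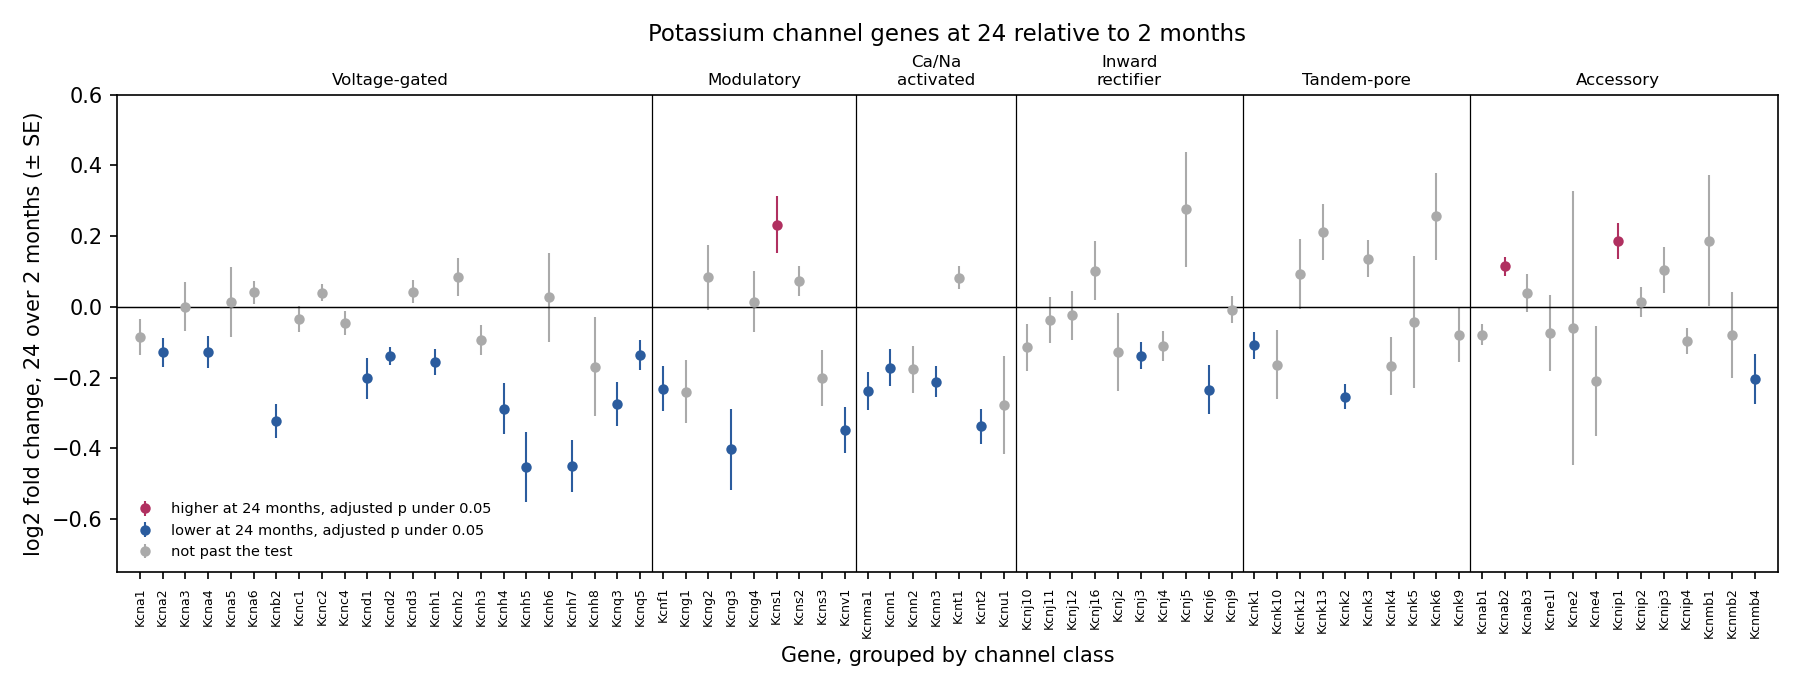
Log2 fold change at 24 against 2 months for 72 of the 76 members, by class, with bars of 1 SE from edgeR's quasi-likelihood fit of 20 libraries; coloured points passed adjusted p 0.05. The called members below zero number 23 and those above it 3, and none lies beyond 1.5-fold.

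The 150 bases before the RefSeq start site (GRCm38.p6) are shown for 4 falling members and for the riser with the smallest p at 24 against 2 months, to show how unlike their starts are. Where a gene has several starts, the one farthest upstream was taken. They lie at chr1:189402274-189402423, minus strand (Kcnk2), chr1:140245568-140245717, plus strand (Kcnt2), chr6:21215196-21215345, plus strand (Kcnd2), chr2:63184288-63184437, minus strand (Kcnh7) and chr4:152477550-152477699, minus strand (Kcnab2), each written 5′ to 3′ on the gene's strand. The RefSeq starts of Kcnt2 and Kcnd2 lie upstream of the GENCODE genes, and that of Kcnab2 lies inside its GENCODE gene. Capitals mark the GC box GGGCGG and the CCAAT box CCAAT, or their reverse complements, the motifs found among the 5 searched.
Kcnk2 promoter: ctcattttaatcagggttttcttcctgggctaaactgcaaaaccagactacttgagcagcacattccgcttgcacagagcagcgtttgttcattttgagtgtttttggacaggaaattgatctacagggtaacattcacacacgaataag
Kcnt2 promoter: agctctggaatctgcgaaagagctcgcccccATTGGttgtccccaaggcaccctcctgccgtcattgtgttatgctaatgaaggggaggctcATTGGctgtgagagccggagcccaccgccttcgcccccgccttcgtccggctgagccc
Kcnd2 promoter: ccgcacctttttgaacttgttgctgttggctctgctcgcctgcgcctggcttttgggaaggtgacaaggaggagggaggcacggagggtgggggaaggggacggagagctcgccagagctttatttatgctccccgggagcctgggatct
Kcnh7 promoter: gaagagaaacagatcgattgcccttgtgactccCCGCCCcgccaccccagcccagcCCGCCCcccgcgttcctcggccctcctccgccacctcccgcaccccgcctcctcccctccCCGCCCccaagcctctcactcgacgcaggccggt
Kcnab2 promoter: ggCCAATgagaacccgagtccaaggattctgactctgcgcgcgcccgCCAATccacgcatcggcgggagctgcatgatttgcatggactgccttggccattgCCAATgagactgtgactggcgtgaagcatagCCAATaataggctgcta
The Kcnh7 window is rich in GC and holds 3 GC boxes, at -117, -94 and -34 from the start. Those of Kcnt2 and Kcnab2 hold CCAAT boxes only, 2 at -119 and -58 in Kcnt2 and 4 at -148, -103, -48 and -17 in Kcnab2. No match to the 5 motifs was found in the windows of Kcnk2 and Kcnd2, which differ in GC content (42.0% and 60.7%). RefSeq lists a promoter for 55 members, and 21 had none in the table. On either strand, the GC box was found in 50.9% of those 55, in 42.1% of the 19 that fell at 24 against 2 months and in 29.0% of 27025 promoters of all genes. The CCAAT box was found in 14.5%, 10.5% and 25.3%, the TATA box TATAAA in 0%, 0% and 8.08%, and the cyclic AMP response element TGACGTCA in 0%, 0% and 1.42%. The E-box CACGTG was found in 5.45%, 5.26% and 4.28%. The median GC content of the window was 62% for the 55 members, 66% for the 19 that fell and 54% for all promoters.

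Voltage-gated subunits were the largest class and held the most falling genes. At 24 against 2 months, 11 of 27 were lower and 0 were higher in edgeR, and DESeq2 gave the same 2 counts. At an unadjusted p under 0.05, 14 were lower and 1 higher. Against 9 months, 15 were lower and 1 higher at 24 months. The fall was not particular to this class. At 24 against 2 months, 4 of the 7 members grouped as calcium or sodium activated were lower. In that comparison 30.3% of all members and 11.7% of all genes tested were lower. The ether-a-go-go relatives of the Kcnh subfamily, which pass slow or resurgent currents near threshold, held the steepest falls. Kcnh7 (ENSMUSG00000059742, GRCm38 chr2:62693414-63184287), an ERG-type channel, had 138, 131, 110.0, 141 and 128 CPM in the 24 month libraries, against 159, 186, 176, 176 and 186 CPM in the 2 month libraries. Every 24 month value lay below every 2 month value, with replicate 3 the lowest. Kcnh7, the gene with 3 GC boxes before its start, fell by 26.8% (log2 fold change -0.45 ± 0.074 (SE), adjusted p = 0.00035), and its line over 2 to 24 months fell by 0.42 on the log2 scale over the 22 months (adjusted p = 0.000596).

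Kcnh5 (ENSMUSG00000034402, GRCm38 chr12:74897220-75177332), an EAG-type channel, had 24.9, 19.3, 16.6, 23.3 and 23.7 CPM in the 24 month libraries, against 24.7, 30.4, 29.8, 30.8 and 32.2 CPM in the 2 month libraries. The groups overlapped, because the highest 24 month library passed the lowest 2 month library. It fell by 26.9% (log2 fold change -0.45 ± 0.10 (SE), adjusted p = 0.00273). Kcnh1, the founding mammalian EAG channel, averaged 103 ± 4.51 CPM at 24 months and 115 ± 6.08 CPM at 2 months (SD, n = 5 each), a fall of 10.3% (adjusted p = 0.00212). Kcnh4, an ELK-type channel, was already lower at the earlier ages: its means were 17.8 ± 1.84, 15.04 ± 1.12, 13.8 ± 1.11 and 14.6 ± 1.504 CPM at 2, 9, 15 and 24 months (SD, n = 5 each). Its log2 fold changes against 2 months were -0.24, adjusted p = 0.024 at 9 months, -0.35, adjusted p = 0.00181 at 15 months and -0.29, adjusted p = 0.00433 at 24 months. The 9 month call of Kcnh4 was lost without 9 month replicates 1, 4 and 5 or 2 month replicates 1, 2 and 5, each left out alone (adjusted p up to 0.0837). Kcnh3, another ELK-type channel, was lower at 15 months (-0.14, adjusted p = 0.0331), a call lost without 15 month replicates 1, 2 and 5 or 2 month replicates 1, 3 and 5, each left out alone (adjusted p up to 0.113). Kcnh2, the ERG-type channel also known from heart, Kcnh6 and Kcnh8 passed no test up to 24 months.

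The 3 members of the A-type Kcnd subfamily, whose fast current delays the first spike and damps signals in dendrites, differed among themselves. Kcnd2 (ENSMUSG00000060882, GRCm38 chr6:21215503-21729805) had 145, 149, 138, 147 and 147 CPM in the 24 month libraries, against 165, 159, 159, 157 and 159 CPM in the 2 month libraries. The groups did not overlap, and 24 month replicate 3 was again the lowest. Kcnd2 fell by 9.23% (log2 fold change -0.14 ± 0.026 (SE), adjusted p = 0.0002). Kcnd3 (ENSMUSG00000040896, GRCm38 chr3:105452330-105674002) instead had 166, 155, 160.1, 145 and 152 CPM in the 15 month libraries, against 139, 135, 137, 135 and 128 CPM in the 2 month libraries. All 15 month libraries were above all 2 month libraries, a rise of 15.7% (log2 fold change 0.21 ± 0.033 (SE), adjusted p = 7.82e-05). Kcnd3 was also higher at 9 months (0.16, adjusted p = 0.00151) and lower at 24 against 9 months (-0.11, adjusted p = 0.00896); without strand-specific counting its reads cannot be told from those of its antisense neighbour. Kcnd1, the least abundant of the 3, averaged 17.4 ± 0.920, 15.1 ± 0.516, 15.1 ± 1.59 and 15.1 ± 0.610 CPM at 2, 9, 15 and 24 months (SD, n = 5 each). It was lower than at 2 months at 9 months (-0.20, adjusted p = 0.02), at 15 months (-0.20, adjusted p = 0.024) and at 24 months (-0.20, adjusted p = 0.0127). Its 9 month call was lost without 2 month replicate 4 (adjusted p = 0.0702), and its 15 month call without 15 month replicates 2 and 3 or 2 month replicate 4, each left out alone (adjusted p up to 0.0923).

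Kcnb2 (ENSMUSG00000092083, GRCm38 chr1:15287254-15723750), a slow delayed rectifier of neurons with which the modulatory subunits can assemble, had 43.7, 40.7, 36.0, 43.9 and 43.5 CPM in the 24 month libraries, against 58.3, 49.5, 50.8, 50.2 and 51.0 CPM in the 2 month libraries. No values overlapped; 24 month replicate 3 was the lowest and 2 month replicate 1 the highest. Kcnb2 fell by 20.05% (log2 fold change -0.32 ± 0.048 (SE), adjusted p = 1.66e-05).

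The Kcnq subfamily carries the M-current, which muscarinic receptors switch off and which restrains repeated firing. Its subunit Kcnq3 (ENSMUSG00000056258, GRCm38 chr15:65986387-66286642) had 284, 265, 220.1, 257 and 256.5 CPM in the 24 month libraries, against 269, 324.7, 308, 319 and 332 CPM in the 2 month libraries. The groups overlapped, with replicate 3 lowest at 24 months. The fall against 2 months was 17.4% (log2 fold change -0.28 ± 0.063 (SE), adjusted p = 0.00418). At 24 against 9 months Kcnq3 was also lower (-0.20, adjusted p = 0.023), a call lost without 9 month replicates 2 and 4, each left out alone (adjusted p up to 0.0559). Kcnq5 was lower at 24 against 2 months (-0.14, adjusted p = 0.0175), a call lost without 24 month replicate 3 or 2 month replicate 5, each left out alone (adjusted p up to 0.0612).

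The Kcnc genes encode channels that close quickly and let fast-spiking neurons fire at high rates. Kcnc2 (ENSMUSG00000035681, GRCm38 chr10:112271121-112467024) had 172, 169, 164, 163 and 167 CPM in the 9 month libraries, against 152, 149, 149, 150.2 and 149.9 CPM in the 2 month libraries. Every 9 month library was above every 2 month library, and the rise was 11.5% (log2 fold change 0.16 ± 0.025 (SE), adjusted p = 7.42e-05). It was likewise higher at 15 against 2 months (0.15, adjusted p = 0.000141) and lower at 24 against 9 months (-0.12, adjusted p = 0.000656). Kcnc4 was lower at 24 against 9 months (-0.13, adjusted p = 0.00381), as was Kcnc1 (-0.11, adjusted p = 0.0196), whose call was lost without 24 month replicate 3 (adjusted p = 0.0689). The 6 fast-spiking interneuron markers summed to 847 to 942 CPM at 9 months and 821 to 904 CPM at 2 months; their part in the result was not tested.

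In the Kcna subfamily, low-threshold channels of axons, 2 of 6 members were lower at 24 against 2 months and 3 at 24 against 9 months. Kcna2, its most abundant member, averaged 479 ± 35.6 CPM at 24 months and 524 ± 19.9 CPM at 2 months (SD, n = 5 each), a fall of 8.48% (adjusted p = 0.0275) that was lost without 24 month replicate 3 or 2 month replicates 2, 4 and 5, each left out alone (adjusted p up to 0.0782). Against 9 months Kcna2 was also lower (-0.14, adjusted p = 0.0108), a call kept whichever single library was left out (adjusted p up to 0.0284). Kcna4, which inactivates quickly, fell by 8.48% (adjusted p = 0.0406), a call lost without 24 month replicates 1, 3, 4 and 5 or 2 month replicates 2, 3, 4 and 5, each left out alone (adjusted p up to 0.107). Kcna1 (-0.15, adjusted p = 0.0253) and Kcna3 (-0.20, adjusted p = 0.0317) were the other two lower at 24 against 9 months. The Kcna1 call was lost without 24 month replicate 3 or 9 month replicate 4, each left out alone (adjusted p up to 0.0614), and the Kcna3 call without 24 month replicates 1 and 3 or 9 month replicates 2 and 4, each left out alone (adjusted p up to 0.105). Kcna5 was lower at 15 against 2 months (-0.31, adjusted p = 0.0468), a call lost without 24 month replicates 2, 3 and 5, 15 month replicates 1, 2, 4 and 5, 9 month replicates 2, 3 and 4, or 2 month replicates 1, 2 and 4, each left out alone (adjusted p up to 0.182). Kcna6 passed no test up to 24 months.

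Among the 9 modulatory subunits, 3 were lower and 1 higher at 24 against 2 months, and 4 lower and 1 higher at 24 against 9 months. Kcnv1 (ENSMUSG00000022342, GRCm38 chr15:45106284-45114920), a silent subunit of cortical and hippocampal neurons, had 63.3, 64.4, 65.8, 67.4 and 63.4 CPM in the 24 month libraries, against 83.9, 80.4, 81.4, 80.5 and 86.5 CPM in the 2 month libraries. The 24 month values were tightly spaced and all below the 2 month values. Kcnv1 fell by 21.5% (log2 fold change -0.35 ± 0.066 (SE), adjusted p = 0.000797), and its means at 9 and 15 months, 84.0 ± 9.71 and 82.3 ± 6.78 CPM (SD, n = 5 each), were close to that of 2 months. Kcnf1 had 126, 132, 139.9, 149.6 and 129 CPM in the 24 month libraries, against 155, 188, 163, 167 and 162 CPM in the 9 month libraries. No values overlapped, and it fell by 18.8% against 9 months (adjusted p = 0.00174) and by 14.8% against 2 months (adjusted p = 0.0142). Kcng1 fell by 26.6% at 24 against 9 months (log2 fold change -0.45 ± 0.087 (SE), adjusted p = 0.000757), with 19.7, 23.2, 24.05, 27.0 and 21.6 CPM at 24 months, against 29.99, 35.3, 33.1, 27.7 and 30.7 CPM at 9 months. Its line over 2 to 24 months also fell (adjusted p = 0.0475), but that call was lost without 24 month replicates 1, 2, 3 and 5, 15 month replicates 1, 2, 4 and 5, 9 month replicates 1, 3, 4 and 5, or 2 month replicates 3, 4 and 5, each left out alone (adjusted p up to 0.131). Kcng3 fell by 24.4% at 24 against 2 months (adjusted p = 0.0115), and its trend call was lost without 24 month replicates 3 and 5 or 2 month replicate 5, each left out alone (adjusted p up to 0.0778).

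Kcns1 went the other way from Kcnv1, Kcnf1 and Kcng3 at 24 against 2 months. It averaged 13.98 ± 1.82 CPM at 24 months and 11.9 ± 0.949 CPM at 2 months (SD, n = 5 each), a rise of 17.5% (adjusted p = 0.0384). That call was lost without 24 month replicates 1, 3 and 5 or 2 month replicates 2, 3 and 4, each left out alone (adjusted p up to 0.151). With GC offsets neither this call (adjusted p = 0.0952) nor that against 9 months (adjusted p = 0.0513) was made. Its rise at 24 against 9 months (0.24, adjusted p = 0.025) was lost without 24 month replicates 1 and 5 or 9 month replicates 1 and 5, each left out alone (adjusted p up to 0.119), and its rising trend (adjusted p = 0.031) without 24 month replicates 1, 3 and 5 or 2 month replicate 2, each left out alone (adjusted p up to 0.137). Kcns2 was higher at 15 against 2 months (0.15, adjusted p = 0.0232), with 37.8 to 40.3 CPM at 15 months and 35.0 to 35.9 CPM at 2 months, a call lost without 15 month replicate 2 or 2 month replicate 3, each left out alone (adjusted p up to 0.0617). Kcng2, Kcng4 and Kcns3 passed no test up to 24 months.

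Of the 7 members grouped here as calcium or sodium activated, Kcnu1 among them, 4 were lower at 24 against 2 months and 0 were higher in edgeR. DESeq2 gave 5 and 0, and an unadjusted p under 0.05 gave 5 and 1. Kcnt2 (ENSMUSG00000052726, GRCm38 chr1:140246158-140612067), a sodium activated channel, had 37.2, 40.3, 34.1, 37.7 and 37.5 CPM in the 24 month libraries, against 46.5, 45.7, 47.2, 47.9 and 48.5 CPM in the 2 month libraries. The lowest 2 month library stood above the highest 24 month library. Kcnt2 fell by 20.9% (log2 fold change -0.34 ± 0.049 (SE), adjusted p = 1.05e-05), and its means at 9 and 15 months lay between, at 43.6 ± 3.87 and 41.8 ± 1.65 CPM (SD, n = 5 each). It was already lower at 15 against 2 months (-0.17, adjusted p = 0.0201), a call lost without 15 month replicates 3 and 4, each left out alone (adjusted p up to 0.0598). Kcnt1, the other sodium activated gene, averaged 204 ± 10.9 CPM at 24 months and 184 ± 7.50 CPM at 9 months (SD, n = 5 each), a rise of 10.4% (adjusted p = 0.00155).

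Kcnma1 (ENSMUSG00000063142, GRCm38 chr14:23289431-24014491), the pore of the large-conductance channel opened jointly by voltage and calcium, had 134, 138, 107, 137 and 139 CPM in the 24 month libraries, against 146, 155, 156, 153 and 161 CPM in the 2 month libraries. All 24 month values were below all 2 month values, and replicate 3 stood well below the other 24 month libraries. The fall was 15.2% (log2 fold change -0.24 ± 0.053 (SE), adjusted p = 0.00284). Kcnn3 (ENSMUSG00000000794, GRCm38 chr3:89520164-89675132), a small-conductance channel that shapes the afterhyperpolarization, had 47.1, 49.6, 44.0, 50.5 and 45.5 CPM in the 24 month libraries, against 64.4, 58.7, 54.5, 61.2 and 57.8 CPM in the 9 month libraries. The groups did not overlap, and the fall was 20.3% against 9 months (log2 fold change -0.33 ± 0.044 (SE), adjusted p = 4.19e-06) and 13.6% against 2 months (adjusted p = 0.00101). Kcnn1 fell by 17.2% at 24 against 9 months (adjusted p = 0.000249). It was also lower than at 2 months at 15 months (-0.20, adjusted p = 0.0139) and at 24 months (-0.17, adjusted p = 0.0192). The 15 month call was lost without 15 month replicate 1 (adjusted p = 0.0531), and the 24 month call without 24 month replicate 5 or 2 month replicate 3, each left out alone (adjusted p up to 0.0553). Kcnn2 was lower at 24 against 9 months (-0.21, adjusted p = 0.0212), a call lost without 24 month replicate 3 or 9 month replicate 4, each left out alone (adjusted p up to 0.0617), and Kcnu1, known from sperm in mouse, passed no test up to 24 months.

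Of the 10 inward rectifiers, 2 were lower and 0 higher at 24 against 2 months in edgeR and in DESeq2, and 3 and 0 at an unadjusted p under 0.05. Kcnj3, a G-protein gated subunit, had 107, 104, 105, 107 and 118 CPM in the 24 month libraries, against 117, 121, 117, 120.5 and 121 CPM in the 2 month libraries. The groups overlapped through 24 month replicate 5, the highest of its age. Kcnj3 fell by 9.13% (log2 fold change -0.14 ± 0.038 (SE), adjusted p = 0.00799), and its trend call was lost without 24 month replicates 1, 2 and 3, each left out alone (adjusted p up to 0.0573). Kcnj6 (ENSMUSG00000043301, GRCm38 chr16:94748636-94997701), its common partner, had 25.97, 27.4, 21.6, 25.6 and 25.05 CPM in the 24 month libraries, against 31.1, 36.8, 33.3, 35.0 and 31.3 CPM in the 9 month libraries. Without overlap between the groups, Kcnj6 fell by 25.1% (log2 fold change -0.42 ± 0.067 (SE), adjusted p = 7.07e-05). Its fall against 2 months (-0.23, adjusted p = 0.0159) was lost without 24 month replicate 3 or 2 month replicate 4, each left out alone (adjusted p up to 0.0547). Kcnj4 was lower at 15 against 2 months (-0.20, adjusted p = 0.00205). Kcnj12 was higher at 9 against 2 months (0.22, adjusted p = 0.0269) and lower at 24 against 9 months (-0.24, adjusted p = 0.0065), and its 9 month rise was lost without 9 month replicates 1 and 2 or 2 month replicates 1 and 5, each left out alone (adjusted p up to 0.0941). Kcnj11, the pore of the channel closed by ATP, was lower at 15 against 2 months (-0.20, adjusted p = 0.0456), a call lost without 15 month replicates 1, 2, 3 and 4, 9 month replicate 5, or 2 month replicates 2, 3, 4 and 5, each left out alone (adjusted p up to 0.148). The astrocyte genes Kcnj10 and Kcnj16 passed no test up to 24 months. Kcnj10 averaged 334 ± 14.1 CPM at 24 months and 362 ± 35.9 CPM at 2 months (SD, n = 5 each; -0.11, adjusted p = 0.243).

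Among the 10 tandem-pore leak channels, Kcnk2 had the smallest p of all members at 24 against 2 months. Kcnk2 (ENSMUSG00000037624, GRCm38 chr1:189207930-189402273), a mechanosensitive and lipid-sensitive channel, had 54.6, 56.2, 59.5, 62.5 and 61.0 CPM in the 24 month libraries, against 72.2, 71.1, 67.1, 69.9 and 70.3 CPM in the 2 month libraries. The groups did not overlap. Kcnk2, in whose start region no motif was found, fell by 16.1% (log2 fold change -0.25 ± 0.035 (SE), adjusted p = 6.16e-06). Most of that difference was present early: it had 59.4, 59.9, 62.6, 62.8 and 64.4 CPM in the 9 month libraries, all below the 2 month libraries (-0.18, adjusted p = 0.00076), and at 15 months it was lower as well (-0.14, adjusted p = 0.00731). Kcnk1 was lower at 24 against 2 months (-0.11, adjusted p = 0.0384) and against 9 months (-0.12, adjusted p = 0.0145), and fell in the trend (adjusted p = 0.0365). These calls were lost without 24 month replicates 1, 2 and 3 or 2 month replicates 2, 3, 4 and 5, each left out alone (adjusted p up to 0.157) for 2 months, without 24 month replicate 1 (adjusted p = 0.0587) for 9 months and without 24 month replicates 1, 2 and 3 or 2 month replicate 2, each left out alone (adjusted p up to 0.138) for the trend.

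Kcnk12, a subunit with little or no current of its own, had 7.42, 7.35, 7.72, 6.35 and 6.16 CPM in the 9 month libraries, against 5.28, 4.03, 6.07, 5.40 and 5.01 CPM in the 2 month libraries. All 9 month libraries were higher, a rise of 35.1% (log2 fold change 0.43 ± 0.10 (SE), adjusted p = 0.00273), and at 24 against 9 months it fell by 21.0% (adjusted p = 0.00689). Kcnk13, in brain a channel of microglia, was higher at 9 against 2 months (0.26, adjusted p = 0.0221), a call lost without 9 month replicate 1 or 2 month replicates 1 and 2, each left out alone (adjusted p up to 0.096). The 9 microglial markers summed to 376 to 398 CPM at 9 months and 352 to 435 CPM at 2 months, with 1 higher and 1 lower; their part in the result was not tested. Kcnk5, the member closest to the minimum, was higher at 24 against 9 months (0.50, adjusted p = 0.0484), a call lost without 24 month replicates 1, 3, 4 and 5, 15 month replicates 1, 2, 3 and 5, 9 month replicates 1, 4 and 5, or 2 month replicates 2, 3, 4 and 5, each left out alone (adjusted p up to 0.154). Kcnk3, Kcnk4, Kcnk6, Kcnk9 and Kcnk10 passed no test up to 24 months.

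The 13 accessory subunits held 2 of the 3 rises at 24 against 2 months and 1 fall. Kcnab2 (ENSMUSG00000028931, GRCm38 chr4:152390742-152477871), the main beta subunit of Kcna channels, had 453, 432, 445, 423 and 435 CPM in the 24 month libraries, against 410.0, 403, 403, 392 and 413 CPM in the 2 month libraries. The lowest 24 month library was above the highest 2 month library, and the rise was 8.26% (log2 fold change 0.11 ± 0.026 (SE), adjusted p = 0.00173). Its course was not steady, with 404 ± 7.87, 436 ± 14.4, 404 ± 9.03 and 437 ± 11.6 CPM at 2, 9, 15 and 24 months (SD, n = 5 each) and a rise at 9 against 2 months (0.11, adjusted p = 0.00464). Kcnip1 (ENSMUSG00000053519, GRCm38 chr11:33629339-33993152), a calcium-binding partner of Kcnd channels, had 34.7, 35.3, 34.6, 38.4 and 38.8 CPM in the 24 month libraries, against 34.5, 31.1, 31.95, 31.9 and 30.1 CPM in the 2 month libraries. The groups did not overlap. It rose by 13.8% against 2 months (log2 fold change 0.19 ± 0.051 (SE), adjusted p = 0.0081) and by 19.5% against 9 months (adjusted p = 0.000347), and its trend call was lost without 24 month replicate 5 (adjusted p = 0.0564).

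Kcnip2, a partner of Kcnd channels too, was higher at 9 against 2 months (0.18, adjusted p = 0.00584) and lower at 24 against 9 months (-0.17, adjusted p = 0.00476). Kcnip4 (-0.095, adjusted p = 0.0445) and Kcnab1 (-0.080, adjusted p = 0.0442) were lower at 24 against 9 months. The Kcnip4 call was lost without 24 month replicates 2 and 3 or 9 month replicates 1, 2 and 5, each left out alone (adjusted p up to 0.131), and the Kcnab1 call without 24 month replicates 1, 2 and 3 or 9 month replicates 1 and 5, each left out alone (adjusted p up to 0.13). Kcnmb4, the neuronal beta subunit of the Kcnma1 channel, fell by 13.2% at 24 against 2 months (adjusted p = 0.0357), a call lost without 24 month replicates 1 and 3 or 2 month replicates 1, 2 and 5, each left out alone (adjusted p up to 0.121); its reads could include those of an antisense neighbour. Its trend call (adjusted p = 0.0348) was lost without 24 month replicates 1 and 3 or 2 month replicates 1, 2 and 5, each left out alone (adjusted p up to 0.111). Kcnab3, Kcnip3, Kcnmb1, Kcnmb2, Kcne1l, Kcne2 and Kcne4 passed no test up to 24 months. In all, 26 members passed none and 50 passed at least 1. These counts pool all comparisons up to 24 months, which share libraries. No share over all genes is given beside them, so they stand without a background.

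**Figure D3:**
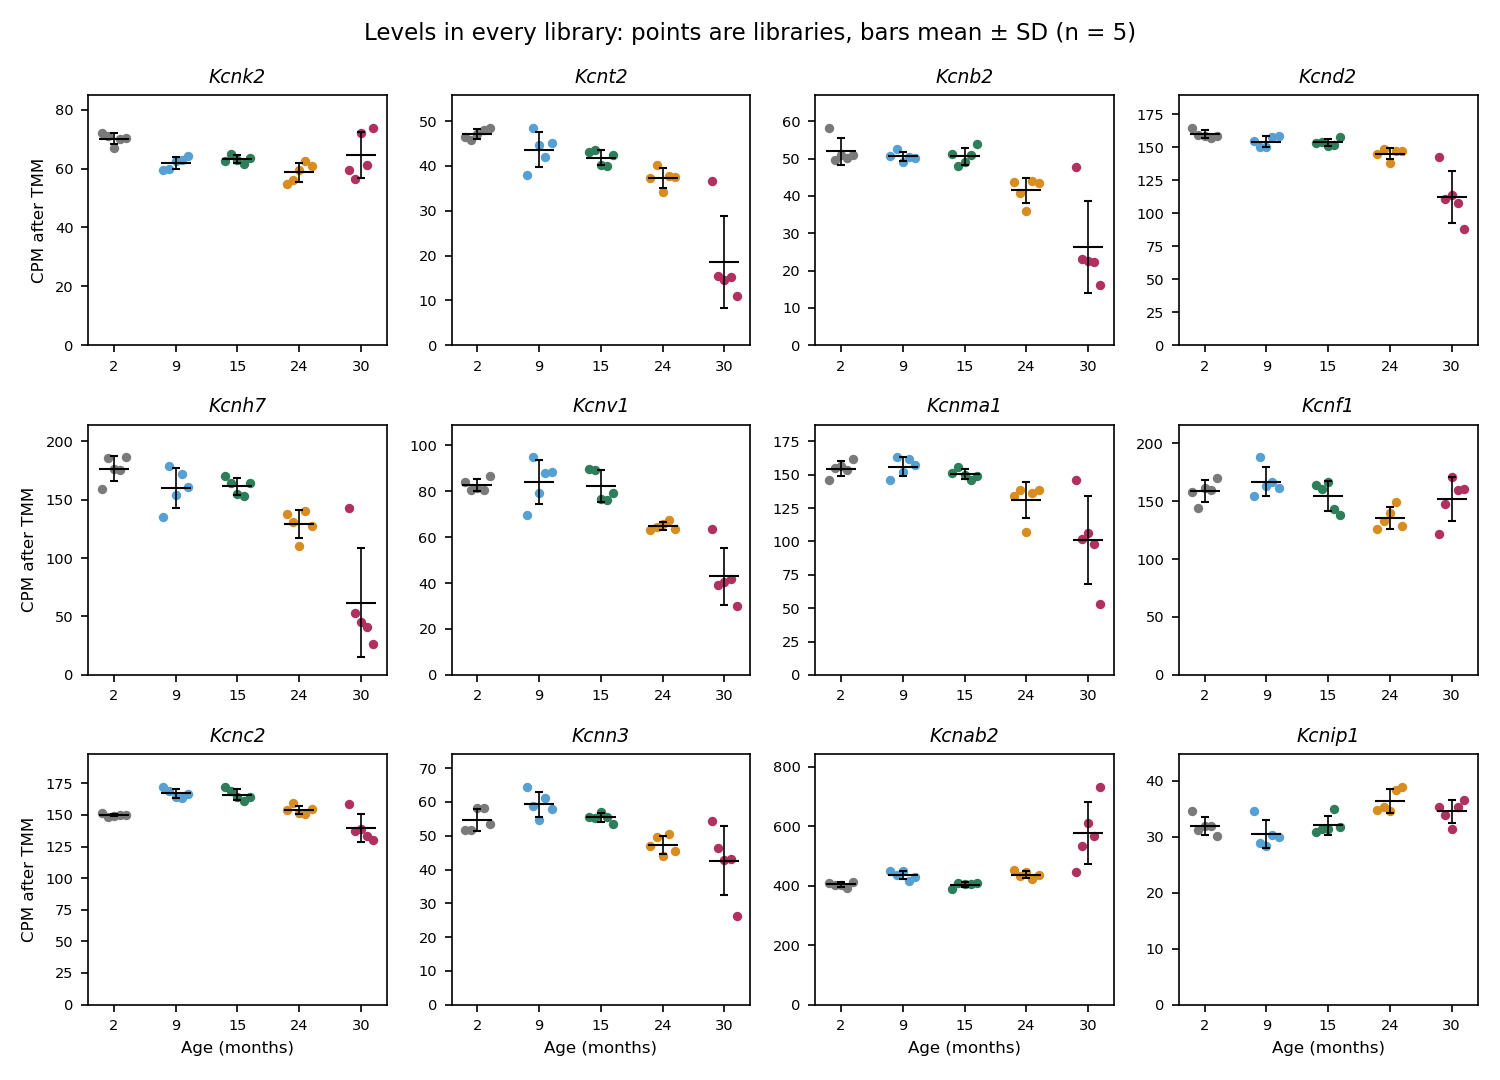
CPM after TMM on a linear axis for 12 members at 2, 9, 15, 24 and 30 months; each point is 1 of 5 libraries per age and the bars give mean ± SD. Kcnk2, Kcnt2, Kcnb2, Kcnd2, Kcnh7 and Kcnv1 show no overlap between 24 and 2 months, and at 30 months the libraries of Kcnh7, Kcnt2 and Kcnb2 split into replicate 1 above and replicates 2 to 5 below.

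The members that fell at 24 against 2 months had, at the median, lower GC content and longer genes, with exceptions such as Kcnh4 at 59.95% GC and Kcnf1 with a span of 4.79 kb. The longest transcripts of the fallers had a median GC content of 45.8% and their genes a median span of 162 kb. The 50 members without a call had 54.4% and 32.6 kb. Protein-coding genes of at least 1 CPM went the same way with smaller distances, at 47.3% and 50.9 kb where they fell and 50.04% and 24.3 kb where they had no call. Over the 76 members, Spearman's correlation between transcript GC content and the log2 fold change at 24 against 2 months was 0.45, and 0.32 after GC offsets. At 24 against 9 months it was 0.15, and 0.036 after offsets. The points share the same 10 libraries, so these are descriptions. With GC offsets 25 members were lower and 3 higher at 24 against 2 months, and 28 lower and 2 higher at 24 against 9 months. At 15 against 2 months 7 were lower and 5 higher. No share over all genes is given beside these counts, so they stand without a background. Among the calls not made with offsets were those of Kcna4 (adjusted p = 0.0954) and Kcnmb4 (0.0616) at 24 against 2 months. At 24 against 9 months they were Kcnd2 (0.0618), Kcnk5 (0.0655), Kcnab1 (0.22) and Kcnip4 (0.385). At 15 against 2 months they were Kcnd1 (0.0707), Kcnn1 (0.105), Kcna5 (0.113), Kcnj11 (0.233) and Kcnh3 (0.505).

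At 30 against 2 months, 28 members were lower and 23 higher, where 29.5% of the 17799 genes tested were lower and 28.5% higher. With GC offsets 18 were lower and 15 higher, against 19.9% and 25.7% of all genes. Both directions lie near their background. Of these, 14 members were lower and 8 higher both ways. Across the 76 members the correlation of log2 fold change with transcript GC content was 0.78 without and 0.19 with offsets. In 61 of 76 members the 30 month replicates 2 to 5 lay all above or all below replicate 1 (80.3%), as they did in 74.3% of the 14898 tested genes of at least 1 CPM. The origin of that split was not tested.

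Without offsets Kcnh7 had the largest fall, with 143, 53.1, 45.6, 40.8 and 26.2 CPM in the 30 month libraries, against 159, 186, 176, 176 and 186 CPM in the 2 month libraries. Replicate 1 was far above the other 30 month libraries, yet still below every 2 month library. Its log2 fold change was -1.51 ± 0.26 (SE, adjusted p = 4.25e-05) without and -0.86 ± 0.14 (SE, adjusted p = 4.55e-05) with offsets. With offsets its 30 month values were 134, 85.0, 82.6, 71.2 and 54.9 CPM, against 140.1, 164, 161, 158 and 163 CPM at 2 months, and the groups did not overlap. Kcnt2 had 36.7, 15.4, 14.5, 15.2 and 11.03 CPM in the 30 month libraries, again with replicate 1 on top and below the 2 month range given above. Its change was -1.34 (adjusted p = 5.94e-06) without and -0.43 (adjusted p = 6.07e-06) with offsets. Kcnv1 had 63.7, 39.1, 40.4, 41.9 and 30.1 CPM in the 30 month libraries, all below the 2 month libraries, and changed on the log2 scale by -0.94 without and -0.25 with offsets. Kcnb2 changed on the log2 scale by -0.98 without and -0.22 with offsets.

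With offsets, 3 falls were about as large or larger. Kcnh5 was at -0.95 without and -0.93 with offsets (adjusted p = 0.000139 with them). Kcna3, a channel of T cells and microglia as well as neurons, was at -0.85 without and -1.12 with offsets (adjusted p = 0.000157 with them). Over the alternative fits, which include leaving out 30 month replicates 2 to 5, the log2 fold change of Kcna3 ran from -1.15 to -0.062. Kcnk5 was at -0.50 without and -0.69 with offsets, and its call without offsets was lost without 30 month replicates 2, 3 and 5 or 2 month replicates 2, 3, 4 and 5, each left out alone (adjusted p up to 0.0949). The remaining falls shrank but passed both ways: Kcnq3 was at -0.80 without and -0.40 with offsets, Kcnma1 at -0.61 without and -0.28 with offsets and Kcnu1 at -0.87 without and -0.59 with offsets, and smaller ones were seen in Kcnd3 (-0.21 without and -0.16 with offsets), Kcns2 (-0.30 without and -0.19 with offsets), Kcns3 (-0.42 without and -0.26 with offsets) and Kcnj3 (-0.57 without and -0.10 with offsets).

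The 8 members higher both ways included Kcnab2, with 445, 533, 611, 566 and 732 CPM in the 30 month libraries, against 410.0, 403, 403, 392 and 413 CPM in the 2 month libraries. All 30 month libraries were higher, replicate 1 the least so. The change was 0.51 without and 0.23 with offsets (adjusted p = 5.11e-06 with them). Kcnk12 was at 0.82 without and 0.35 with offsets and Kcnk3, an acid-sensitive leak channel, at 0.59 without and 0.29 with offsets. Kcnk6, a tandem-pore subunit, was at 0.60 without and 0.53 with offsets. Kcng2 was at 0.68 without and 0.32 with offsets, Kcnk13 at 0.42 without and 0.20 with offsets and Kcnk1 at 0.25 without and 0.16 with offsets. In contrast, 5 members that were lower without offsets were higher with them: Kcnab1 (-0.34 without and 0.15 with offsets), Kcnip4 (-0.53 without and 0.21 with offsets), Kcnc2 (-0.10 without and 0.22 with offsets), Kcnj2 (-0.39 without and 0.34 with offsets) and Kcna4 (-0.25 without and 0.15 with offsets). The fall of Kcnc2 without offsets was lost without 30 month replicates 2, 3, 4 and 5, each left out alone (adjusted p up to 0.0979). Another 15 higher and 9 lower calls were not made with offsets, among them Kcnd2 (-0.51 without and -0.068 with offsets), Kcnn3 (-0.36 without and 0.0096 with offsets), Kcnc1 (0.32 without and 0.071 with offsets) and Kcnh2 (0.39 without and 0.052 with offsets). Kcnmb4 was called only with offsets, at 0.61 (adjusted p = 0.00119), as were Kcnip1 at 0.26, Kcnh4 at -0.38, Kcnf1 at -0.24, Kcnj9 at -0.21 and Kcnk2 at -0.18.

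Without 30 month replicates 2 to 5, replicate 1 alone was set against 2 months, with the spread of the other ages assumed for it. A count of calls from 1 library is not given. In that fit Kcnk1 turned from higher to a log2 fold change of -0.11. Sizes of other named members depended on the fit too. Over the alternatives, which include that fit, Kcnb2 ran from -1.31 to -0.074 on the log2 scale. Of the 23 members lower at 24 against 2 months, 22 were below the 2 month mean in 30 month replicate 1 (95.7%). In that library 14 were below every 2 month library (60.9%). Of the 1974 genes of at least 1 CPM lower at 24 against 2 months, 90.1% lay below the 2 month mean and 68.3% below every 2 month library. With GC offsets, 11 of those 23 members were lower (47.8%) and 3 higher (13.04%) at 30 against 2 months, with 52.1% and 11.96% of those 1974 genes. The members' shares lie near these backgrounds, and both comparisons use the same 2 month libraries.

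**Figure D4:**
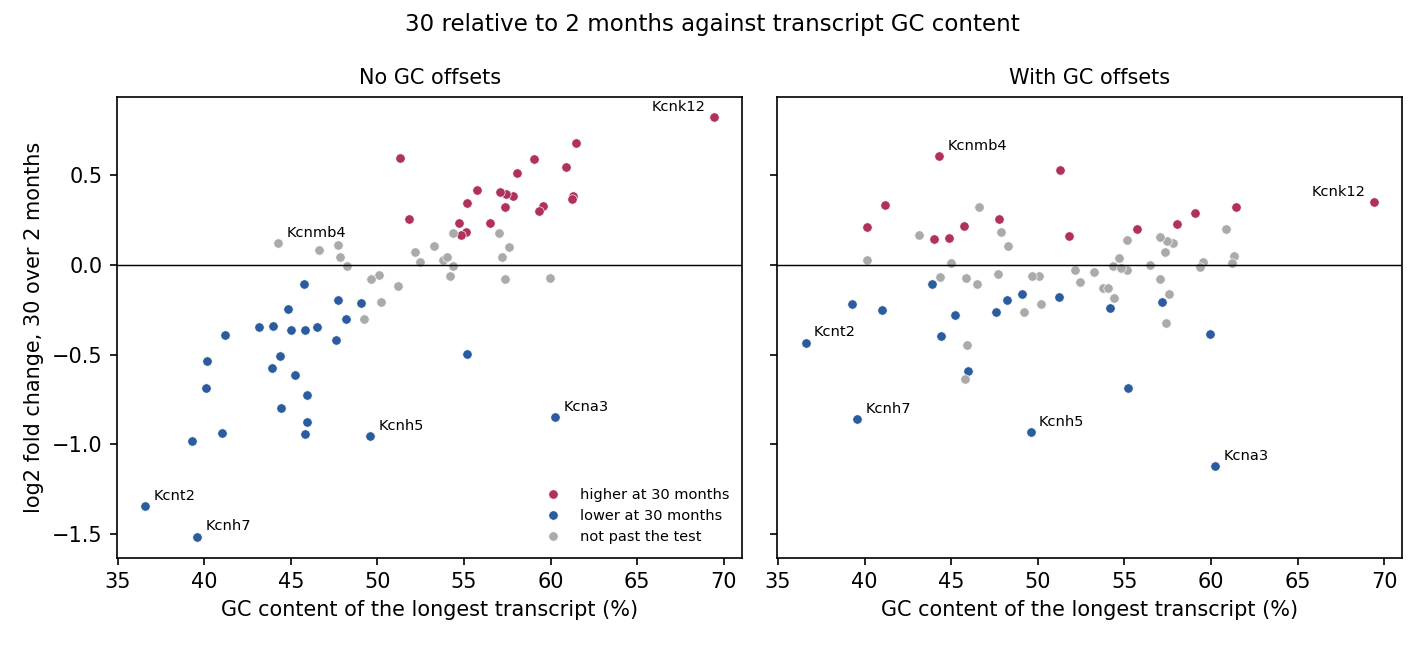
Log2 fold change at 30 against 2 months for 72 of the 76 members against the GC content of the longest transcript, without GC offsets and with them; each point is 1 gene. Without offsets the points climb with GC content (Spearman 0.78 over all 76), and with offsets the slope is mostly gone (0.19) and Kcna3, Kcnh5 and Kcnh7 are then the lowest.

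**Figure D5:**
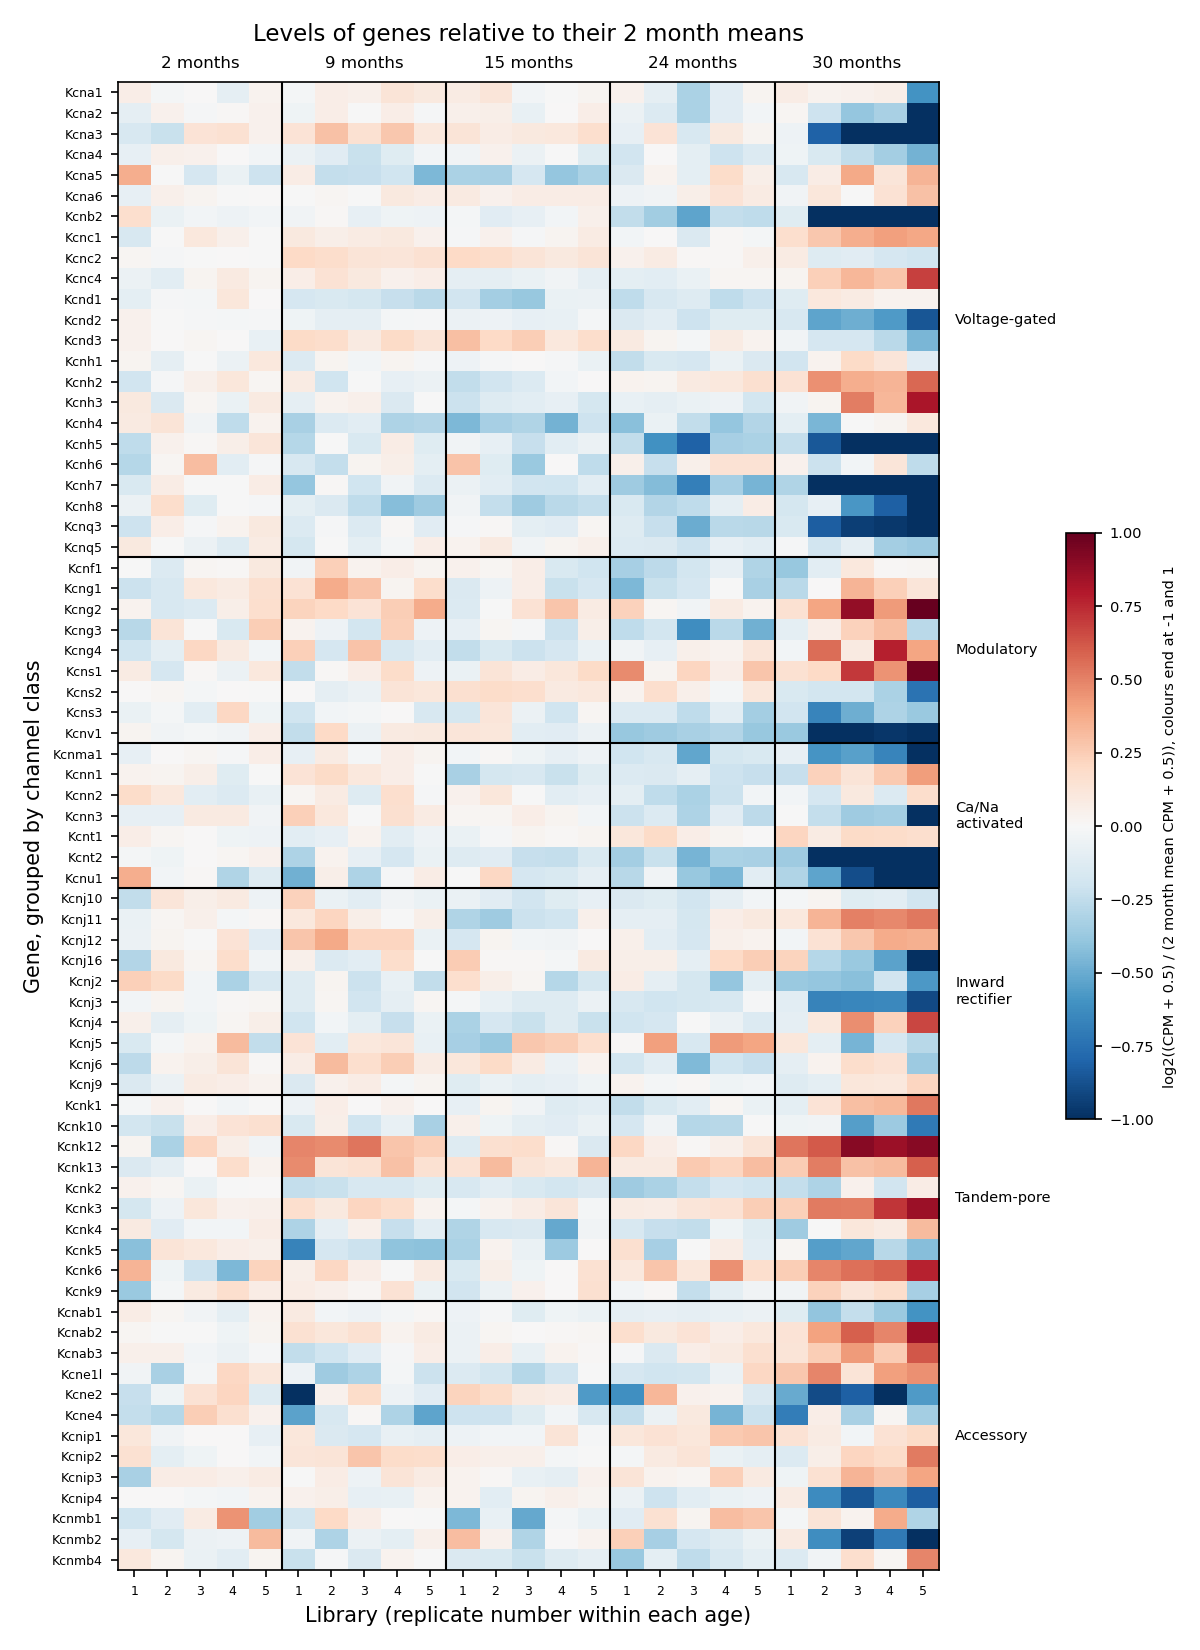
The log2 level of 72 of the 76 members in each library relative to the member's 2 month mean, with members in rows by class and the 25 libraries in columns by age. The 30 month replicates 2 to 5 differ from replicate 1 in most rows: in 61 of all 76 members (80.3%) they lie all above or all below it, against 74.3% of genes of at least 1 CPM.

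Other channel genes were set beside the members at 24 against 2 months. Of 18 voltage-gated calcium channel genes, 9 were lower and 0 higher in edgeR and in DESeq2, with 10 and 0 at an unadjusted p under 0.05, and of 14 voltage-gated sodium channel genes 5 were lower and 4 higher. The calcium channel accessory genes Cacna2d3 (log2 fold change -0.24) and Cacna2d1 (-0.19) and the sodium channel pore genes Scn2a (-0.19) and Scn8a (-0.14) were among those lower. None of 4 HCN channel genes was called by edgeR or DESeq2, and 1 was lower at an unadjusted p under 0.05. Of 16 tested genes for partners of potassium channels outside the Kcn symbols, 7 were lower and 1 higher, among them Dpp10 (-0.14), a partner of Kcnd channels, and Lgi1 (-0.19), which binds the Kcna complex.

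Cell type markers were counted in the same fits. At 24 against 2 months, of 12 neuronal markers, 2 were lower and 1 higher. Of 6 striatal markers, 3 were lower, and they summed to 624 to 736 CPM at 24 months, against 690 to 866 CPM at 2 months. At 24 against 9 months 4 of the 6 were lower. Of 9 microglial markers, 6 were higher and 1 lower at 24 against 2 months, summing to 408 to 455 CPM at 24 months, against 352 to 435 CPM at 2 months. Oligodendrocyte markers had 5 of 9 higher at 24 against 9 months and summed to 6088 to 6532 CPM at 24 months, against 5029 to 6014 CPM at 9 months. Pericyte and smooth muscle markers had 3 of 7 higher in that comparison, summing to 270 to 305 CPM at 24 months, against 237 to 279 CPM at 9 months. Of 6 genes typical of liver, 5 were higher at 24 against 9 months, and Alb, the gene for albumin, had 38.5 to 171 CPM at 24 months, against 0.565 to 24.2 CPM at 9 months. None of the 6 was called at 24 against 2 months by edgeR or DESeq2, and 2 were higher at an unadjusted p under 0.05. The part of these shifts in the channel results was not tested.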

How the data were processed

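RNA-seq libraries from brain hemispheres of male mice, 5 per age, were made from total RNA with a TruSeq RNA kit, per the labels' protocols. Per the submitters' processing notes, the authors used CASAVA 1.7 and STAR 2.4.1d with GRCm38, and the deposited values are whole-number counts per Ensembl gene from featureCounts 1.4.6-p4, not normalized. Strand use and annotation release are not given in the sources used here. Deposited RPKM values were not used.

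Symbols, coordinates, lengths and GC content came from GENCODE M21 (GRCm38), which matched 47310 of 47729 genes. 5 antisense genes of the same name pattern were left out by type. In R 4.3.3, edgeR 4.0.16 with filterByExpr and TMM gave robust quasi-likelihood tests, two-sided, with Benjamini-Hochberg adjustment over all genes tested at 0.05. The 20 libraries of 2 to 24 months entered 1 fit (9, 15 and 24 against 2 months, 24 against 9 months, and a linear trend), and all 25 libraries the fit of 30 against 2 months. CPM levels use TMM over all 25 libraries, and groups are called overlapping on that scale. GC offsets are spline fits (5 degrees of freedom) of each library's log2 ratio to the average gene level on transcript GC content. The gap in base composition was taken over 13806 protein-coding genes, between the 10% of highest and lowest GC content.

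Each library held between 17.8 and 31.3 times 1000000 counts, and the SDs and tests cover counting error and the spread between libraries together. Alternatives were DESeq2 1.42.0, its size factors, total counts, no filter, GC offsets, GC and length offsets, all 25 libraries in 1 fit, leaving out 30 month replicates 2 to 5, and leaving out each library. The scripts were tested on simulated counts. Replicates were numbered in the order of the samples. Named are the highest member per kilobase of each subfamily, the members with the smallest p (up to 12 each way for 24 against 2 months and the trend, 6 each way for the other ages up to 24 months, 8 each way at 30 months past both fits), those nearest the minimum and those with a library far from the rest; others in the text were named after their values were seen. The 4 members not reported one by one here enter every fit and count. The members, lists, motifs and the fit of 20 libraries were chosen with earlier results of these data known.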

Additional observations from a re-analysis of the deposited data

Results flagged for a closer look

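Among the 220 groups of 5 libraries formed by the named members and the 5 ages, 13 held a library whose gap to its nearest neighbour was over 0.71 of the group's range. Chance flags about 1 in 20 groups. At 30 months there were 4, and in all 4 replicate 1 was the library apart. Kcnh7 was at 143 CPM in it, with 26.2 to 53.1 CPM in the other 4. Kcnb2 was at 47.7 CPM, with 16.1 to 23.0 CPM in the others, and Kcnt2 at 36.7 CPM, with 11.03 to 15.4 CPM. Kcnj3 was at 111 CPM, with 63.4 to 75.9 CPM in the others.

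At 24 months, replicate 3 was low in Kcnma1 at 107 CPM, with 134 to 139 CPM in the others, and in Kcnc1 at 213 CPM, with 231 to 236 CPM. Kcnj3 was high at 118 CPM in replicate 5, with 104 to 107 CPM in the others. At 15 months, Kcnip1 was high at 34.9 CPM in replicate 4, with 30.8 to 31.7 CPM in the others, and Kcnab2 was low at 388 CPM in replicate 1, with 405 to 410.0 CPM. At 9 months, Kcnj10 was high at 425 CPM in replicate 1, with 337 to 353 CPM in the others. That library is also the one with little Ttr.

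At 2 months, replicate 1 was the library apart in 3 members. Kcnb2 was at 58.3 CPM in it, with 49.5 to 51.0 CPM in the others, and Kcnd2 at 165 CPM, with 157 to 159 CPM. Kcnk5 was at 0.782 CPM, with 1.28 to 1.38 CPM in the others.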

How the results depend on the processing

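Counts of members called are given as higher and lower, without shares over all genes, so they describe the members only. One fit of all 25 libraries gave 2 and 0 at 9 against 2 months, 0 and 0 at 15 against 2 months, 0 and 1 at 24 against 2 months and 2 and 9 at 24 against 9 months, with 9 and 5, 3 and 8, 2 and 16 and 4 and 17 at an unadjusted p under 0.05. Its trend, which then spans 2 to 30 months, gave 18 higher and 22 lower. Total counts gave 9 and 8 at 9 against 2 months, 6 and 21 at 24 against 2 months, and 7 and 23 at 24 against 9 months. Without the filter there were 5 higher at 24 against 2 months and 3 at 24 against 9 months, where DESeq2 also gave 3 and GC offsets 2. GC offsets gave 5 and 7 at 15 against 2 months. At 30 against 2 months, GC offsets gave 15 and 18, and GC and length offsets 15 and 17. Leaving out 30 month replicates 2 to 5 left Kcnk1 reversed at -0.11, the 1 reversal among 15 named members. Sizes of other named members at 30 against 2 months depended on the fit as well. Over the alternatives, which include that omission, the log2 fold change of Kcnb2 ran from -1.31 to -0.074. That of Kcnk12 ran from 0.34 to 0.89. The cause was not tested for any of these.

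With each library left out in turn, the counts ranged over 7 to 13 and 2 to 5 at 9 against 2 months, 2 to 4 and 5 to 9 at 15 against 2 months, 2 to 5 and 18 to 25 at 24 against 2 months, 2 to 6 and 25 to 32 at 24 against 9 months, 0 to 3 and 15 to 21 for the trend, and 21 to 26 and 24 to 29 at 30 against 2 months. Of the lower count, 5 at 9 months came without 9 month replicate 2, 2 without 2 month replicate 4, and 5 at 15 months without 15 month replicate 1 or 2. Of the higher count, 5 at 24 against 2 months came without 2 month replicate 1. At 24 against 9 months, 2 came without 24 month replicate 1 or 5 and 3 without 24 month replicate 4 or 9 month replicate 5. For the trend, 0 came without 24 month replicate 5, and 1 without 24 month replicate 1 or 3 or 2 month replicate 2. Of the 23 members lower at 24 against 2 months, 16 were called under every such omission. No paired analysis was possible because the replicate numbers only name the libraries and pair none across ages. Members near 1 CPM, such as Kcnk5, rest on few counts.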
